A study of Homo sapiens and Mus musculus with 99 samples.

Results

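The experiment described here asked how an agent labelled Tra altered the RNA response of a human lung cancer cell line to a fungal extract. It consists of 6 of the 99 samples of the series, 3 libraries labelled ALT+Tra and 3 labelled ALT, chosen by their labels and by the deposited count table that holds them. NCI-H1437 is an epithelial non-small cell lung cancer line. ALT is extract of the mould Alternaria alternata, and DPBS is the mock treatment. The name of the count table identifies the experiment as one with a MEK inhibitor. The labels do not spell out the name of Tra, its dose or when it was added relative to the extract. RNA was taken 4 h after stimulation in every group, and the same table holds 3 DPBS libraries, which served as the background. The groups used from this experiment contain no cells given Tra alone, so the effect of Tra was measured only in cells that also received the extract. A separate experiment on the same line, H1437-2, gave 2 libraries each of DPBS, of Aeg-S/L, the joined pore-forming proteins of the fungus, and of Aeg-S/L with Tra. Another, H1437-4, gave 2 libraries of DPBS and 2 of extract from the wild-type fungus, labelled WT ALT. The fits of these tables also held 2 libraries each of Aeg-S and Aeg-L alone, and of extracts labelled aegs KO ALT and aegl KO ALT. These entered the low-count filter, the scaling and the estimate of spread, but were not compared. All libraries come from 1 cell line, which limits them as a model of airway epithelium.

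MEK1 and MEK2 are the kinases that phosphorylate and activate the ERK kinases, the last step of the cascade that runs from growth factor receptors through RAS and RAF. Active ERK enters the nucleus, where it drives immediate early genes, a set that is transcribed within minutes and needs no new protein. ERK also induces its own inhibitors, the Sprouty and SPRED proteins and the dual-specificity phosphatases, so that the RNA of these feedback genes is widely read as a gauge of ERK activity. In airway epithelium, ERK and NF-kB are known to act together on genes of neutrophil chemokines and cytokines. NCI-H1437 is known to carry an activating mutation in MAP2K1, the gene of MEK1.

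Libraries of H1437-1 held 32473156 to 53172930 counted fragments, and genes of the mitochondrial genome took 1.64% to 3.26% of them. Replicates of ALT lay close together, whereas DPBS 1 and ALT+Tra 3 stood apart from the other libraries of their groups. The chi-square per degree of freedom between replicates was 5.08 to 15.8 within ALT, 227 and 343 for DPBS 1 against the other two DPBS libraries, and 247 and 159 for ALT+Tra 3 against the other two of its group. Counts of called genes are therefore also given without both. Keratins and EPCAM marked the line as epithelial: the 7 markers that passed the low-count filter summed to 3429 to 6221 CPM (each count relative to a common library size, with library sizes scaled by the TMM method) over the 9 libraries, and none was called. Of 13 markers of other cell types, 12 had a matching identifier and 4 passed the filter. They summed to 94.75 to 123.6 CPM in DPBS, 174.7 to 256.1 CPM in ALT and 118.1 to 131.4 CPM in ALT+Tra, mostly through COL1A1, a collagen gene. COL1A1 and CDH5 were lower in ALT+Tra than in ALT, with log2 changes of -0.96 and -1.74, and both were called without DPBS 1 and ALT+Tra 3. COL1A1 lost its call without ALT 2, ALT 3, ALT+Tra 2 or ALT+Tra 3 (adjusted p of 0.0712 to 0.161). In bulk RNA, fewer cells of a type and less RNA per cell cannot be told apart. DCN and CD68 had no counts in any of these groups. The part of these markers in the results was not tested.

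With all 9 libraries in the fit, more genes of extract-treated cells were lower with Tra than higher, but this balance hung on single libraries. Of 16251 genes tested, 610 were lower and 216 were higher in ALT+Tra than in ALT (edgeR quasi-likelihood test, Benjamini-Hochberg adjusted p below 0.05 over all genes), and 517 and 136 of these differed at least 2-fold. Lower calls were 3.75% of all genes tested and higher calls 1.33%, and the median log2 change over all genes was 0.00 (-0.0045). The mean of ALT+Tra was below that of DPBS for 426 of the 610 lower genes, against 8300 of all 16251. Against DPBS, ALT alone raised 583 genes (3.59%) and lowered 183 (1.13%), while ALT+Tra had 20 higher (0.123%) and 26 lower (0.16%). These comparisons share libraries, so their counts are given side by side only. Deviations of same-numbered DPBS and ALT+Tra libraries were positively correlated (0.466, 0.121 and 0.374). Differently numbered pairs of these groups had -0.545 to 0.123. Replicate 2 of both groups was thus no closer than DPBS 3 with ALT+Tra 2. A replicate block in ALT+Tra against DPBS gave 27 higher and 30 lower in the fit of 9 libraries, and 422 higher and 433 lower in a fit of these 6 alone. It had 201 higher and 193 lower without DPBS 1 and ALT+Tra 3. The number of calls hung on single libraries. Without DPBS 1 it was 1143 lower and 1243 higher, with more genes higher than lower. Without DPBS 1 and ALT+Tra 3 together it was 1463 lower and 1310 higher, closer to even. Counts of list members given below for the latter fit stand beside these larger totals, not beside 3.75% and 1.33%. Without ALT 1, ALT 2, ALT 3 or ALT+Tra 2 the calls were 321, 251, 253 or 272 lower and 29, 27, 26 or 47 higher.

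**Figure D1:**
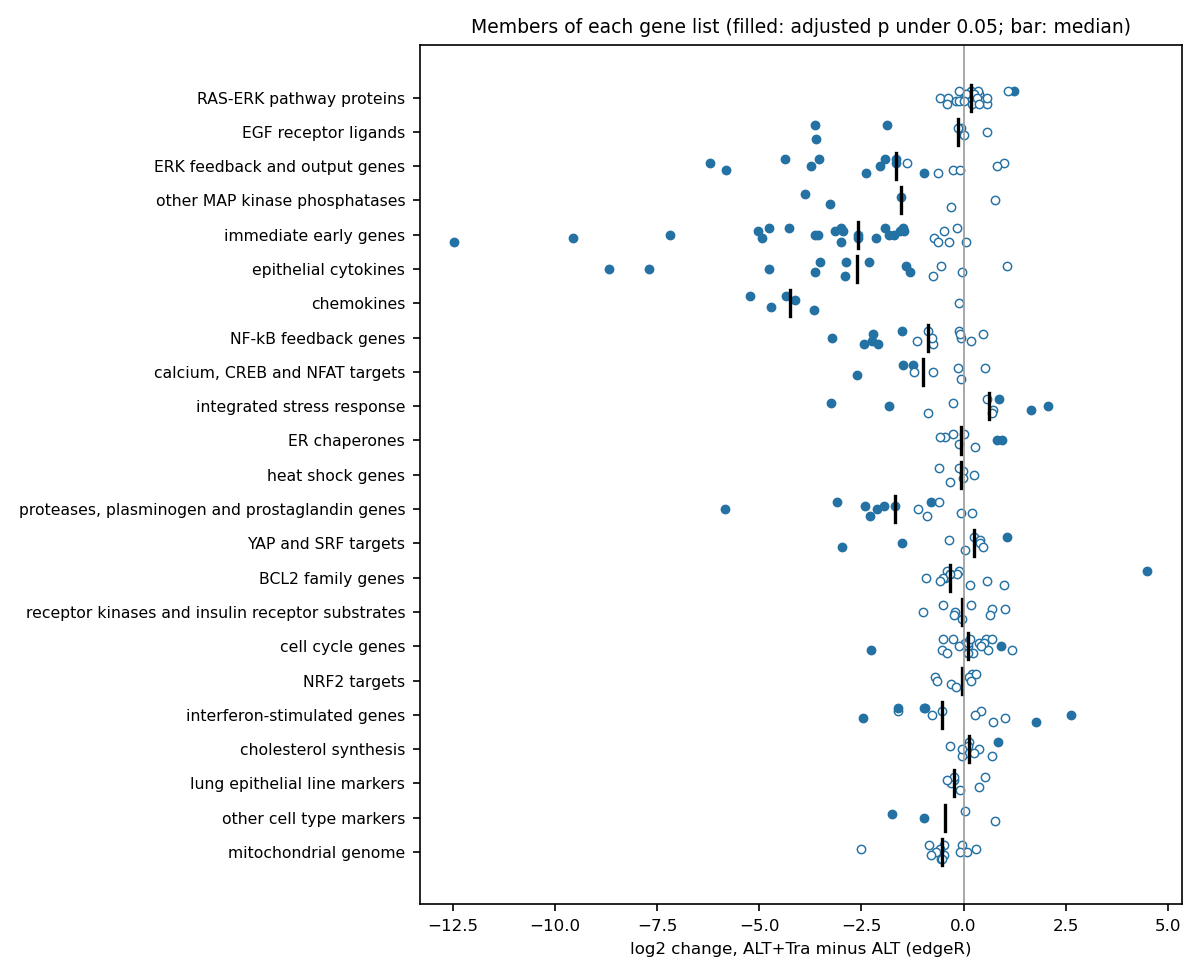
The log2 change between ALT+Tra and ALT (x axis) of each member of the 23 gene lists that passed the low-count filter, with filled points for an adjusted p below 0.05 and a bar at the list's median. ERK feedback genes, immediate early genes, cytokines and chemokines lie mostly left of 0, with medians between -1.65 and -4.24, and pathway proteins lie around 0. EGR2, IL20 and CSF2, plotted among the points farthest left, had no counts in ALT+Tra, so their plotted values depend on the prior count.

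The genes that encode the cascade itself hardly moved. Among 21 RAS-ERK pathway proteins, from receptors to kinases, 1 was higher, none was lower and the median log2 change was 0.19. The RNA of MAP2K1, which encodes MEK1, was 150, 139 and 152 CPM in ALT and 142, 135 and 134 CPM in ALT+Tra (log2 change -0.10 ± 0.17 SE, adjusted p = 0.751). The member that rose was ERBB3, a receptor of the EGF receptor family. It was 96.1, 144 and 138 CPM in DPBS, 71.7, 70.1 and 69.5 CPM in ALT and 150, 141 and 204 CPM in ALT+Tra (log2 change 1.23 ± 0.22, adjusted p = 0.00964). Every ALT+Tra library was thus above every ALT library, and ALT was below every DPBS library. Its call was lost without ALT 1, ALT 2 or ALT 3 (adjusted p of 0.052, 0.0622 and 0.0654). Without DPBS 1 and ALT+Tra 3 together 3 members were higher, beside 1310 higher over all genes.

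Of the 7 EGF receptor ligands, 3 fell with Tra, also without DPBS 1 and ALT+Tra 3, and none rose. AREG encodes amphiregulin and EREG encodes epiregulin, growth factors shed from the cell surface. AREG was 2.36, 4.39 and 2.18 CPM in DPBS, 46.6, 56.9 and 51.7 CPM in ALT and 6.57, 3.44 and 2.51 CPM in ALT+Tra (log2 change -3.63 ± 0.39, adjusted p = 0.000376). EREG was 6.79, 16.6 and 16.9 CPM in DPBS, 236, 272 and 264 CPM in ALT and 23.7, 23.8 and 15.5 CPM in ALT+Tra (-3.61 ± 0.35, adjusted p = 0.000199). Both thus lay in or above the DPBS range in ALT+Tra and far below ALT. HBEGF, which encodes heparin-binding EGF-like growth factor, was 35.6, 35.7 and 38.4 CPM in ALT and 12.6, 11.4 and 5.71 CPM in ALT+Tra (-1.88 ± 0.27, adjusted p = 0.00283). TGFA, which encodes another ligand of that receptor, overlapped between the groups (-0.13 ± 0.22, adjusted p = 0.746).

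Feedback inhibitors and other known output genes of ERK fell, several of them under the level of mock-treated cells. Of 17 such genes, 11 were lower in ALT+Tra than in ALT and none was higher, with a median log2 change of -1.65, and for 14 of the 17 the mean of ALT+Tra was below that of DPBS. SPRY4, an inhibitor of RAS-ERK signalling, was 11.1, 14.4 and 14.3 CPM in DPBS, 45.6, 51.6 and 51.5 CPM in ALT and 0.985, 0.754 and 0.221 CPM in ALT+Tra. DUSP6, the phosphatase that acts on ERK in the cytoplasm, was 10, 14 and 17 CPM in DPBS, 28.6, 32.2 and 29.1 CPM in ALT and 0.657, 0.699 and 0.193 CPM in ALT+Tra. The deposited table places SPRY4 (ENSG00000187678.8, chromosome 5, 141689992 to 141706020) and DUSP6 (ENSG00000139318.7, chromosome 12, 89741009 to 89747048) in hg19 coordinates. The 3 ALT+Tra libraries lay more than 10-fold below every DPBS library for both genes. Against ALT the log2 change was -6.22 ± 0.41 for SPRY4 (adjusted p = 2e-05) and -5.82 ± 0.40 for DUSP6 (adjusted p = 2.5e-05), and against DPBS it was -4.32 and -4.69 (adjusted p = 0.0013 for both). PHLDA1, a gene induced by growth factors, was the other member called below DPBS with all libraries: 29.3, 31.5 and 33.3 CPM in DPBS, 246, 296 and 314 CPM in ALT and 14.2, 15.6 and 11.4 CPM in ALT+Tra (-4.38 ± 0.22 against ALT, adjusted p = 4.41e-06). Without DPBS 1 and ALT+Tra 3, SPRED1, SPRED2, ETV5, CCND1 and DUSP5 were also called below DPBS (adjusted p of 0.0008 to 0.0128). In that fit 193 genes in all were lower than in DPBS.

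DUSP5, which encodes a nuclear phosphatase of ERK, was 43.5, 41.6 and 45.2 CPM in DPBS, 223, 294 and 311 CPM in ALT and 21.5, 22 and 18.7 CPM in ALT+Tra (log2 change -3.73 ± 0.21, adjusted p = 7.84e-06). EPHA2, a receptor of ephrins, was 18.7, 15.3 and 17.2 CPM in DPBS, 139, 161 and 188 CPM in ALT and 17.3, 11.2 and 13.3 CPM in ALT+Tra (-3.54 ± 0.23, adjusted p = 2e-05). For both the groups of extract-treated cells were far apart, and DUSP5 in ALT+Tra was below every DPBS library without passing the test (adjusted p = 0.0529; 0.0205 with a replicate block over the DPBS and ALT+Tra libraries, 0.0128 without DPBS 1 and ALT+Tra 3). EPHA2 did not pass it against DPBS (adjusted p = 0.446). SPRY1, SPRED2, SPRY2, CCND1, DUSP4 and ETV5 fell by less, with log2 changes from -2.39 to -0.97. CCND1 encodes cyclin D1, which drives entry into the cell cycle, and was 406, 382 and 374 CPM in ALT and 91.9, 104 and 174 CPM in ALT+Tra (-1.65 ± 0.27, adjusted p = 0.00579). ETV5, an ETS transcription factor, did not differ between ALT and DPBS (0.01, adjusted p = 0.994) but fell from 56.2, 53.4 and 51.5 CPM in ALT to 22.2, 25.2 and 35 CPM in ALT+Tra. Its call was lost without any 1 of ALT 1, ALT 2, ALT 3, ALT+Tra 1 and ALT+Tra 2 (adjusted p of 0.0657 to 0.118), and that of SPRY1 without ALT 3 (adjusted p of 0.0503). SPRED1 missed the threshold (-1.38 ± 0.36, adjusted p = 0.052) and passed without DPBS 1 and ALT+Tra 3 (adjusted p = 8.81e-05), as part of a count of 14 lower members in place of 11.

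The promoters of the 2 feedback genes that fell furthest are shown because their RNA dropped under the level of mock-treated cells. They run from 250 bases before to 50 after the start of the RefSeq gene in GRCh38.p14, on the gene's minus strand, at chr5:142324198-142324497 for SPRY4 and chr12:89352452-89352751 for DUSP6. Neither window held a match on either strand to the motifs searched, so no base is in capitals. These were the CArG box of SRF and the NF-kB site (both by name), the ETS motif CCGGAA, the AP-1 site TGANTCA and the cAMP response element TGACGTCA. Shorter or variant forms of a site, such as the GGAA present in both windows, were not searched.
SPRY4: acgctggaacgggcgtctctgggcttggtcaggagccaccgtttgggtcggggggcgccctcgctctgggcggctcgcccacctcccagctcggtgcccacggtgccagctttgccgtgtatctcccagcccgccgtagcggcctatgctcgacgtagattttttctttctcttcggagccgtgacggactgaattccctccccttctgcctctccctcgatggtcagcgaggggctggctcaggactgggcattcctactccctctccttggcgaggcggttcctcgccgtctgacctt
DUSP6: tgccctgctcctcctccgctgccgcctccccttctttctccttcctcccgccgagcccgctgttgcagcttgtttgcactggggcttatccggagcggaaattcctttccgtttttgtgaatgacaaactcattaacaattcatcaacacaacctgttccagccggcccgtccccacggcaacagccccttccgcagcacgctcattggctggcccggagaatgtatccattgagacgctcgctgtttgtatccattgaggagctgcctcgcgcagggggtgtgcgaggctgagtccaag

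**Figure D2:**
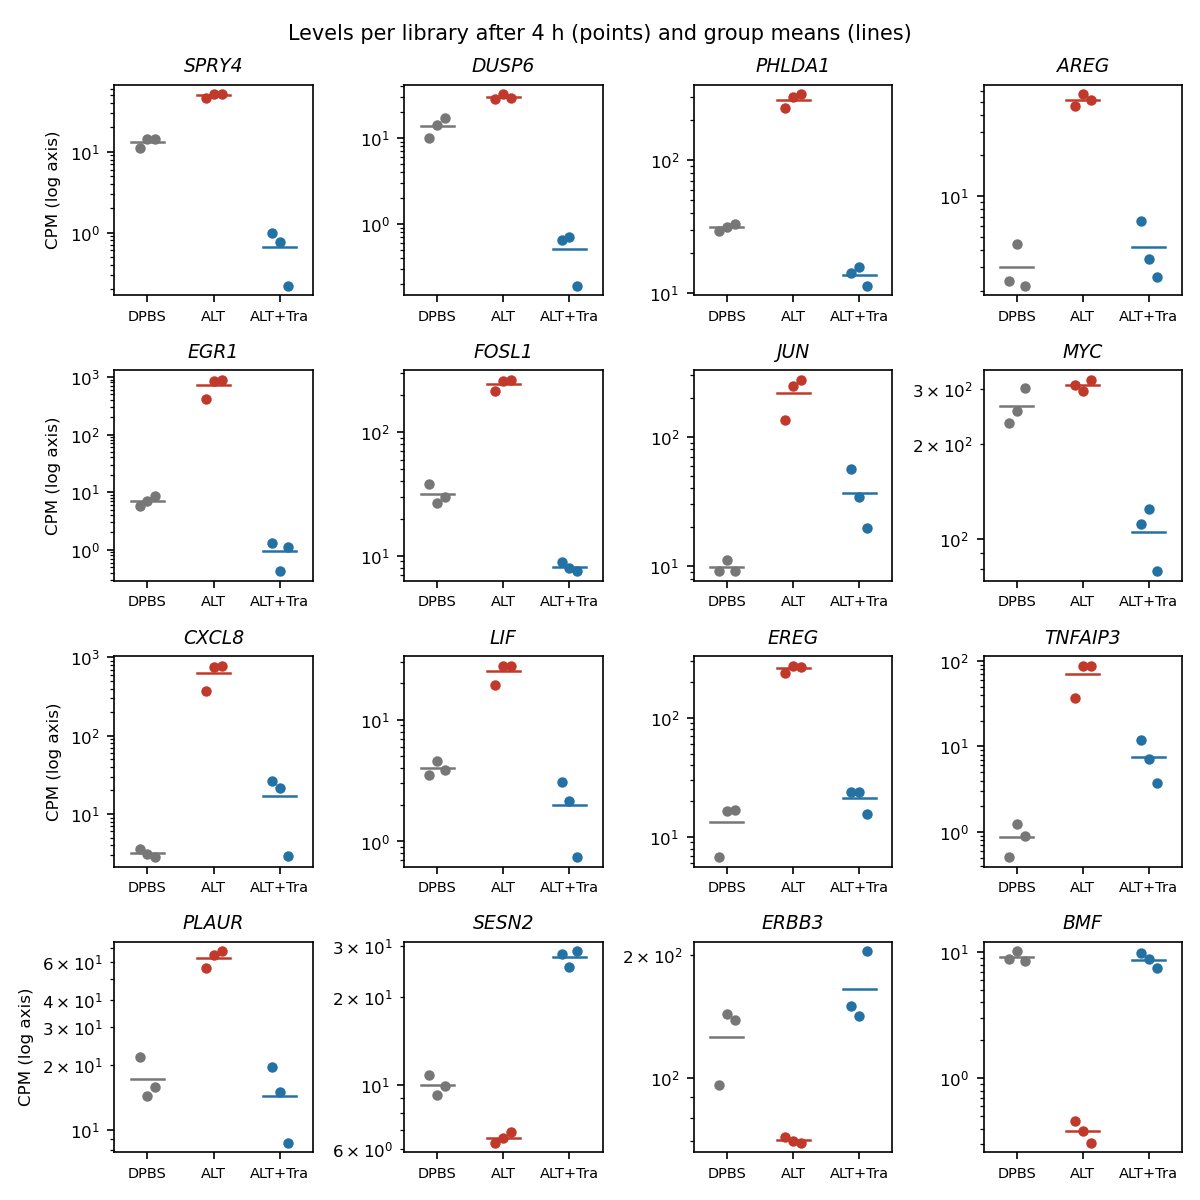
CPM of 16 genes (log axes, which do not start at 0) in each library (points) with the group mean (lines) for DPBS, ALT and ALT+Tra, 3 libraries each. SPRY4, DUSP6, PHLDA1, EGR1, FOSL1 and MYC lie lower in every ALT+Tra library than in any DPBS library, while JUN and TNFAIP3 stay above it; BMF, ERBB3 and SESN2 are higher in ALT+Tra than in ALT.

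Other phosphatases of MAP kinases went different ways. Of 5 tested, DUSP1, DUSP2 and DUSP10 fell. DUSP1 was 65, 49.8 and 59.8 CPM in DPBS, 397, 746 and 869 CPM in ALT and 52.3, 43.6 and 39.6 CPM in ALT+Tra (log2 change -3.89 ± 0.30, adjusted p = 7.18e-05). DUSP8, a phosphatase of JNK and p38, was 3.41, 2.46 and 3.34 CPM in DPBS, 16.1, 25.2 and 25.6 CPM in ALT and 19.5, 16.8 and 17.7 CPM in ALT+Tra. It was above DPBS in all 6 libraries with extract, and the change with Tra did not pass the test (-0.31 ± 0.23, adjusted p = 0.437). DUSP10 lost its call without ALT 2, ALT 3 or ALT+Tra 2 (adjusted p of 0.0839, 0.104 and 0.0813). Without DPBS 1 and ALT+Tra 3 the number of lower members was again 3. DUSP16, not called with all libraries, was higher in that fit (log2 change 0.65, adjusted p = 0.0159).

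Immediate early genes fell as a body. Of 28 tested, 22 were lower in ALT+Tra than in ALT and none was higher, with a median log2 change of -2.58, which stayed at -2.58 with EGR2 placed at its bound. In the same libraries ALT against DPBS had 24 of the 28 higher. EGR1, a zinc finger factor whose promoter is a classic target of ERK through SRF and its partners, was 5.79, 7.08 and 8.41 CPM in DPBS, 409, 850 and 888 CPM in ALT and 1.34, 0.423 and 1.1 CPM in ALT+Tra (log2 change -9.57 ± 0.54, adjusted p = 7.84e-06). All ALT+Tra libraries were below all DPBS libraries (-2.91 against DPBS, adjusted p = 0.016). EGR2, a relative of EGR1, was 9.89, 22.5 and 22.9 CPM in ALT and had no counts in any ALT+Tra library, at least 799.7-fold lower against a floor of 3 counts over the group (adjusted p = 7.18e-05). For both genes ALT 1 was the lowest of the ALT libraries and still lay above every ALT+Tra library.

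FOS and JUN proteins pair to form the AP-1 factor, and their genes differed in how far they fell. FOS was 8.41, 9.36 and 10.7 CPM in DPBS, 417, 975 and 1025 CPM in ALT and 35.2, 26.6 and 11.9 CPM in ALT+Tra (-5.04 ± 0.47, adjusted p = 0.000186). FOSB was 1.08, 0.801 and 0.929 CPM in DPBS, 62.9, 139 and 162 CPM in ALT and 1.04, 0.864 and 0.551 CPM in ALT+Tra (-7.20 ± 0.43, adjusted p = 9.35e-06). FOSB in ALT+Tra thus overlapped the mock level. FOSL1, whose protein FRA1 is stabilised by ERK, fell from 218, 260 and 266 CPM in ALT to 8.81, 8 and 7.47 CPM in ALT+Tra, under its 37.9, 26.9 and 29.9 CPM in DPBS (-4.94 ± 0.23 against ALT, adjusted p = 3.87e-06, and -1.96 against DPBS, adjusted p = 0.0024). JUN was 9.23, 11.2 and 9.1 CPM in DPBS, 135, 249 and 277 CPM in ALT and 56.5, 34.1 and 19.5 CPM in ALT+Tra (-2.58 ± 0.39, adjusted p = 0.0035), above DPBS in each library. JUND and FOSL2, other members of the AP-1 families, did not pass the test (-0.17 and 0.06, adjusted p = 0.692 and 0.907).

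MYC, a driver of growth and ribosome synthesis, fell without having risen. It was 235, 256 and 303 CPM in DPBS, 310, 296 and 322 CPM in ALT and 111, 125 and 78.6 CPM in ALT+Tra, with no change between ALT and DPBS by the test (0.23, adjusted p = 0.649). The log2 change with Tra was -1.56 ± 0.21 against ALT (adjusted p = 0.00197) and -1.34 against DPBS (adjusted p = 0.0271). NR4A1, an orphan nuclear receptor, was 42.7, 37.8 and 48 CPM in DPBS, 621, 977 and 1071 CPM in ALT and 179, 141 and 126 CPM in ALT+Tra (-2.58 ± 0.25, adjusted p = 0.000199). It remained above DPBS (1.79, adjusted p = 0.0106). NR4A3, of the same family, was 145, 185 and 196 CPM in ALT and 114, 153 and 143 CPM in ALT+Tra against 9.52, 18 and 24.3 CPM in DPBS. Its change with Tra did not pass the test (-0.36 ± 0.30, adjusted p = 0.501). MCL1, which encodes a short-lived inhibitor of cell death, was 1298, 1791 and 1856 CPM in ALT and 452, 472 and 375 CPM in ALT+Tra (-1.93 ± 0.21, adjusted p = 0.00042). The 6 members that did not pass were KLF4, KLF6, SRF, NR4A3, JUND and FOSL2. The count of lower members was 18 to 23 with 1 library left out and 24 without DPBS 1 and ALT+Tra 3.

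The EGR1 promoter is shown because this gene had one of the widest swings between ALT and ALT+Tra. In hg19 the gene is at chromosome 5, 137801179 to 137805004. The promoter lies on the plus strand at chr5:138465229-138465528 of GRCh38.p14 and has 2 CArG boxes, in capitals. The windows of EGR2, which fell further, and of IL20 were searched too and held no match to any of the motifs. A CArG box was found in 351 of all 27305 promoters (1.29%), in 1.04% of those of genes tested and in 6 of the 419 promoters found for the genes lower in ALT+Tra (1.43%).
EGR1: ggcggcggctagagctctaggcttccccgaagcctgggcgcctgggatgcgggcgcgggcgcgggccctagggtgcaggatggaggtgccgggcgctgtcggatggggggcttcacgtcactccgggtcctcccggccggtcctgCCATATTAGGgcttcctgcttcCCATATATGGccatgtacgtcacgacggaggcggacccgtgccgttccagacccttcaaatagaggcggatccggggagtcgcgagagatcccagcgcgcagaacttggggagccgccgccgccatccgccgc

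Cytokine genes of epithelium fell in the same comparison. Of 20 listed, 14 passed the low-count filter; 10 of these were lower, none was higher and the median log2 change was -2.60, also with genes without counts at their bounds. The other 6, among them IL1B, TNF, TSLP and IL25, did not pass the filter. IL6, a cytokine of acute inflammation, had no counts in DPBS, was 15.4, 35.5 and 37 CPM in ALT and was 2.1, 1.08 and 0 CPM in ALT+Tra (-4.77 ± 0.91, adjusted p = 0.0198). LIF, which signals through the same receptor subunit as IL6, was 3.52, 4.6 and 3.87 CPM in DPBS, 19.4, 27.6 and 27.9 CPM in ALT and 3.06, 2.15 and 0.744 CPM in ALT+Tra (-3.65 ± 0.42, adjusted p = 0.000617). CLCF1, of that family too, fell from 90.7, 90.5 and 97.7 CPM to 17.4, 12.2 and 8.02 CPM (-2.89 ± 0.28, adjusted p = 0.000199). LIF and CLCF1 in ALT+Tra were below every DPBS library without passing the test against DPBS (adjusted p = 0.297 and 0.275). IL6 was above 0 in 2 libraries with Tra. The call of IL6 was lost without ALT 2, ALT 3 or ALT+Tra 2 (adjusted p of 0.0759, 0.0782 and 0.111) and with DESeq2 (adjusted p of 0.0747).

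Rarer cytokine transcripts were barely detectable with Tra. IL20, an epithelial cytokine of the IL10 family, was 0.833, 1.36 and 1.82 CPM in ALT and had no counts in ALT+Tra, at least 58.1-fold lower (adjusted p = 0.00196). CSF2, which encodes GM-CSF, was 0.457, 0.38 and 1.18 CPM in ALT and had no counts in ALT+Tra, at least 29.1-fold lower (adjusted p = 0.0138). IL1A, an alarm cytokine of the IL1 family, was 1.16, 1.9 and 1.65 CPM in ALT and 0.354, 0.405 and 0.165 CPM in ALT+Tra, against 0.312, 0.129 and 0.292 CPM in DPBS (-2.32 ± 0.47, adjusted p = 0.0183). IL33, an alarmin released by injured cells, was under 1 CPM in every library and did not pass the test (1.07 ± 0.61, adjusted p = 0.331). IL20 was called in each of the 9 fits with 1 library left out. Other low genes were not: IL24 kept its call in 1 and IL11 in 2 of these fits, IL1A lost it without ALT 2, ALT 3 or ALT+Tra 2, and CSF2 without ALT 3 or ALT+Tra 2. The count of lower cytokines was 4 without ALT 2 and 11 without DPBS 1 or without DPBS 1 and ALT+Tra 3.

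Chemokines that attract neutrophils and lymphocytes fell to widely different levels in the 3 libraries. Of 13 listed genes 6 passed the filter, and CXCL8, CXCL2, CCL20, CXCL1 and CXCL3 were lower. CXCL8, the gene of the main neutrophil attractant of human airways, was 3.58, 3.1 and 2.81 CPM in DPBS, 373, 750 and 787 CPM in ALT and 26.7, 21.3 and 2.87 CPM in ALT+Tra (log2 change -5.23 ± 0.69, adjusted p = 0.0017). CXCL2 was 209, 438 and 489 CPM in ALT and 26.3, 16.3 and 0.992 CPM in ALT+Tra (-4.70 ± 0.87, adjusted p = 0.0116). CCL20, which attracts cells bearing CCR6, was 9.7, 29 and 29.3 CPM in ALT and 2.15, 1.1 and 0.0551 CPM in ALT+Tra (-4.35 ± 0.91, adjusted p = 0.0207). ALT+Tra 1 and ALT+Tra 2 were above DPBS and ALT+Tra 3 was within its range or below it. CXCL16, a membrane-bound chemokine that did not move with the extract, was 44.5, 47.3 and 44.1 CPM in ALT and 44.4, 44.9 and 37.2 CPM in ALT+Tra.

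The number of chemokines called depended on single libraries. It was 2 without ALT 2 or without ALT 3, 4 without ALT 1 or without DPBS 2, and 5 without ALT+Tra 3. CCL20 was not called with DESeq2 (adjusted p of 0.0722). Without ALT+Tra 3 the log2 change of CXCL8 was -4.72 (adjusted p = 0.000518), and without ALT+Tra 2 it was -5.42 (adjusted p = 0.0177), the only one of the 5 still called there. Without DPBS 1 and ALT+Tra 3 all 5 were lower. CXCL1, CXCL2 and CXCL3 are close in sequence, so how the counting shared reads among them is uncertain.

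The CXCL8 promoter is shown as that of the chemokine that fell furthest. It lies on the plus strand at chr4:73740319-73740618 of GRCh38.p14 and has 1 match to the AP-1 site TGANTCA, in capitals. The other motifs, the NF-kB site among them, had no match. Sites that differ from the searched pattern in any base were not counted, so this does not show that the promoter lacks an NF-kB site.
CXCL8: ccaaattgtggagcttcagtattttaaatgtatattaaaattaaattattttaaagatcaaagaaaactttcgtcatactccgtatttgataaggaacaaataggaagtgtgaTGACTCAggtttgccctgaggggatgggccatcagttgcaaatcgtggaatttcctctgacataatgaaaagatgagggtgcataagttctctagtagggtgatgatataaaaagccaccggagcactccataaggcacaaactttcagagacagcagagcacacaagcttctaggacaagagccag
An AP-1 site was found in 11.2% of the 419 promoters of genes lower in ALT+Tra, in 6.67% of 180 of genes higher in it and in 4.93% of all promoters of genes tested. The NF-kB site was found in 11.2%, 7.22% and 6.48%, and the cAMP response element TGACGTCA in 5.01%, 1.67% and 3.2%. For the ETS motif CCGGAA the shares were 24.1%, 21.1% and 28.8%. These shares count letters in a window of 300 bases and are not tests of binding. AP-1 and the cAMP response element differ in letters, and a window could hold matches to several motifs.

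**Figure D3:**
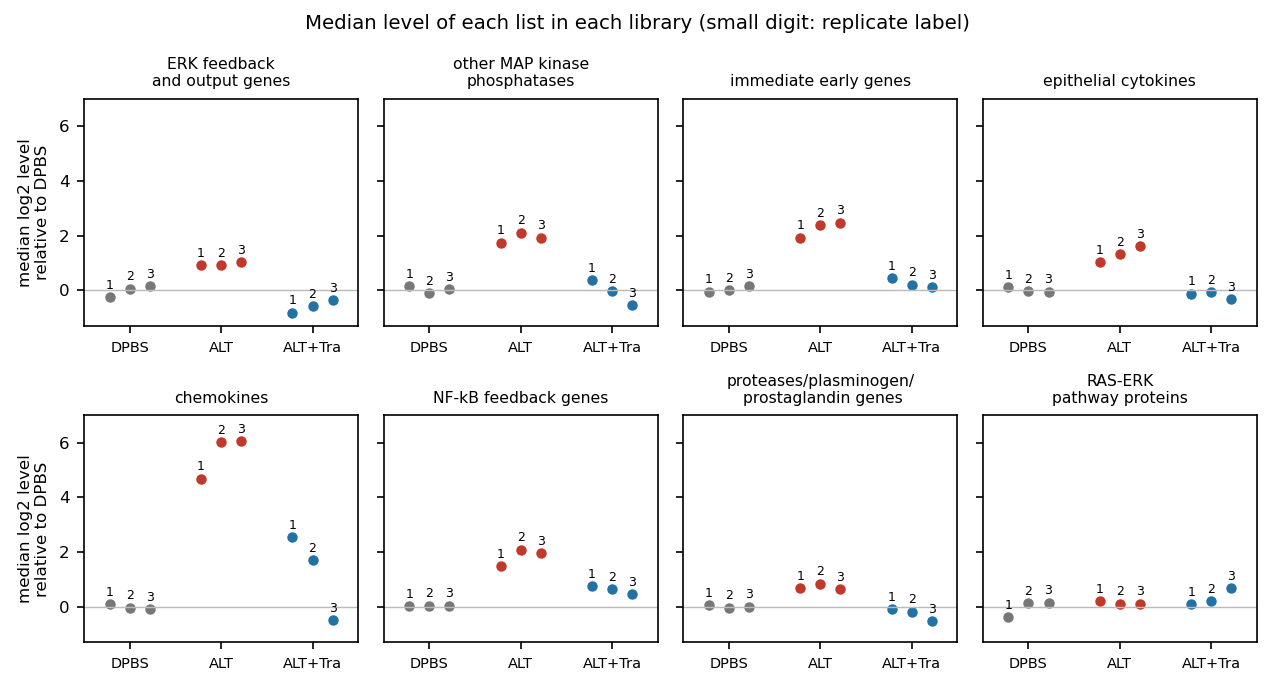
Median log2 level of 8 gene lists in each library, relative to the mean of the DPBS libraries (log2 of CPM + 0.5; small digits are replicate labels). ERK feedback genes lie at -0.81, -0.58 and -0.36 in ALT+Tra, under every DPBS library, whereas chemokines in ALT+Tra are spread from 2.55 to -0.48.

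Feedback genes of NF-kB were divided. Of 15, 6 fell and none rose, with a median log2 change of -0.87. TNFAIP3, which encodes the ubiquitin-editing inhibitor A20, was 0.511, 1.24 and 0.902 CPM in DPBS, 37, 85.7 and 87.7 CPM in ALT and 11.7, 7.06 and 3.69 CPM in ALT+Tra (-3.22 ± 0.47, adjusted p = 0.00316), still above DPBS in each library (3.07, adjusted p = 0.0334). NFKBIA, the gene of the NF-kB inhibitor IkB-alpha, was 258, 466 and 504 CPM in ALT and 139, 91.4 and 34.7 CPM in ALT+Tra (-2.21 ± 0.43, adjusted p = 0.015), a call lost without ALT 2, ALT 3 or ALT+Tra 2. BIRC3, which encodes a ubiquitin ligase of the TNF receptor complex, and RELB, a subunit of NF-kB, overlapped between ALT and ALT+Tra. BIRC3 was 1.28, 3.88 and 4.41 CPM in DPBS, 13.9, 16.7 and 16.9 CPM in ALT and 13.9, 18 and 13.2 CPM in ALT+Tra (-0.07 ± 0.35, adjusted p = 0.92). Both remained above DPBS (adjusted p = 0.0384 for both). NFKB1 missed the threshold (-0.75 ± 0.20, adjusted p = 0.0594) and passed without DPBS 1 and ALT+Tra 3 (adjusted p = 0.00241), when 8 members were lower; without ALT 2 the number was 3.

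Genes of matrix proteolysis, plasminogen activation and prostaglandin synthesis fell in 8 of 13 cases, and none rose. PTGS2, which encodes the inducible cyclooxygenase, was 11.1, 25.1 and 26.8 CPM in DPBS, 209, 300 and 319 CPM in ALT and 59.5, 73 and 36.4 CPM in ALT+Tra (-2.29 ± 0.36, adjusted p = 0.00521). PLAUR, the urokinase receptor, was 21.8, 14.3 and 15.7 CPM in DPBS, 56.4, 64.8 and 67.5 CPM in ALT and 19.5, 15 and 8.68 CPM in ALT+Tra (-2.13 ± 0.29, adjusted p = 0.00216). PTGS2 thus remained above mock in each library and PLAUR did not. ITGA2, a collagen-binding integrin, fell from 152, 183 and 165 CPM to 20.7, 35.1 and 38.5 CPM (-2.41 ± 0.43, adjusted p = 0.00925), a call lost without ALT+Tra 2 (adjusted p of 0.0512). The protease gene MMP1 was under 1 CPM in all libraries, with 65 counts over the ALT libraries and 1 over those with Tra. With 1 library left out, 4 to 8 members were lower, the lowest number without ALT+Tra 2, and without DPBS 1 and ALT+Tra 3 the number was 10.

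Targets of calcium, CREB and NFAT signalling and of YAP and SRF showed both patterns. PDE4B, a phosphodiesterase of cAMP, was 20.3, 30.9 and 35.4 CPM in DPBS, 98.6, 117 and 121 CPM in ALT and 17, 21.8 and 16.4 CPM in ALT+Tra (-2.61 ± 0.25, adjusted p = 0.000195). PER1 and CREM were the other lower members of the 8 calcium and CREB targets, and none was higher. The number of lower members was 5 without DPBS 1 and ALT+Tra 3. RCAN1, another member, was higher in that fit (0.49, adjusted p = 0.0438). Among 9 YAP and SRF targets, CCN1 and CCN2, which encode matricellular proteins, fell, with the same counts of 2 lower and 1 higher without DPBS 1 and ALT+Tra 3. CCN2 was 27.7, 47 and 41.2 CPM in ALT and 6.62, 5.85 and 2.29 CPM in ALT+Tra (-2.97 ± 0.36, adjusted p = 0.000977). AJUBA, which encodes a LIM protein of the Hippo pathway, rose: 22.2, 21.9 and 24 CPM in DPBS, 43.8, 42.8 and 46.6 CPM in ALT and 106, 83.9 and 88 CPM in ALT+Tra (1.06 ± 0.17, adjusted p = 0.00578). LATS2 and AMOTL2, Hippo pathway genes too, remained above DPBS with Tra (2.59 and 2.45, adjusted p = 0.00857 and 0.0024), with values in ALT+Tra of 52.4 to 63.8 CPM and 45.9 to 83.6 CPM. The call of CCN1 was lost without ALT 1, ALT 2, ALT 3, ALT+Tra 2 or DPBS 2, and that of AJUBA without ALT 2 (adjusted p of 0.0548).

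The genes that rose with Tra included a regulator of cell death. BMF, a BH3-only gene of the BCL2 family that promotes apoptosis, had the largest increase among called genes that reached a mean of 1 CPM in a group and did not overlap. It was 8.89, 10.2 and 8.55 CPM in DPBS, 0.457, 0.38 and 0.308 CPM in ALT and 9.87, 8.79 and 7.53 CPM in ALT+Tra. The gene (ENSG00000104081.9, chromosome 15, 40380091 to 40401093 in hg19) had levels with Tra that overlapped those of mock-treated cells and that were more than 10-fold above every ALT library (log2 change 4.50 ± 0.26, adjusted p = 7.84e-06, called in each of the 9 fits with 1 library left out). It was the only one called of the 13 genes tested in the BCL2 list, which does not hold MCL1, described above among the immediate early genes, and the count was again 1 without DPBS 1 and ALT+Tra 3. BCL2L11, the gene of the related protein BIM, overlapped between ALT and ALT+Tra (-0.16 ± 0.23, adjusted p = 0.712). VAV3, a guanine nucleotide exchange factor, was 81, 130 and 112 CPM in DPBS, 29.7, 30.5 and 25.9 CPM in ALT and 113, 124 and 116 CPM in ALT+Tra (2.04 ± 0.21, adjusted p = 0.00032). CYP1A1, a cytochrome induced by the aryl hydrocarbon receptor, was 73.2, 71.5 and 75.8 CPM in DPBS, 7.04, 8.12 and 8.04 CPM in ALT and 32.8, 30.5 and 18.6 CPM in ALT+Tra (1.82 ± 0.23, adjusted p = 0.00114), between both other groups in every library. PROX2 and PLAG1, with log2 changes of 2.75 and 2.09, were among the 15 largest increases by that rule but under 2 CPM in all libraries, and both calls were lost without ALT 1, ALT 3 or ALT+Tra 2.

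The integrated stress response was split by Tra. SESN2, a stress-induced regulator of mTORC1, was 10.8, 9.2 and 9.87 CPM in DPBS, 6.31, 6.56 and 6.86 CPM in ALT and 28.1, 25.4 and 28.8 CPM in ALT+Tra. It was above both other groups in every library (2.06 ± 0.18 against ALT, adjusted p = 0.000102; 1.46 against DPBS, adjusted p = 0.00478). CHAC1, which degrades glutathione, and DDIT4, an inhibitor of mTORC1, rose with log2 changes of 1.66 and 0.88 (adjusted p = 0.00924 and 0.0216). CHAC1 was 5.51, 6.72 and 8.94 CPM in ALT and 29.8, 21.5 and 15.4 CPM in ALT+Tra. Its call was lost without ALT 1 or ALT 2, and that of DDIT4 without any 1 of ALT 1, ALT 2, ALT 3, ALT+Tra 1 and ALT+Tra 2. PPP1R15A, whose protein GADD34 restores translation after stress, went the other way, from 238, 433 and 493 CPM in ALT to 70.6, 38.9 and 14.1 CPM in ALT+Tra (-3.24 ± 0.52, adjusted p = 0.00553), and CEBPB fell too (-1.83 ± 0.22, adjusted p = 0.000928). The count of higher members among the 10 was 1 without ALT 1 and 6 without DPBS 1 and ALT+Tra 3. Of 8 genes of ER folding and the unfolded protein response, XBP1, which encodes a transcription factor, and HERPUD1, which acts in degradation at the ER, rose, and none of the 6 others was called (0.81 and 0.93, adjusted p = 0.0269 and 0.034), calls lost in 4 and 6 of the 9 fits with 1 library left out, each ALT library and ALT+Tra 2 among them. The list had 3 higher without DPBS 1 and ALT+Tra 3.

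Other lists had few calls or calls in both directions. Of 21 cell cycle genes, CDKN1A, which encodes the inhibitor p21, was lower (76.3, 79.1 and 87.5 CPM in ALT; 18.9, 18.4 and 13.5 CPM in ALT+Tra; -2.26 ± 0.23, adjusted p = 0.000259) and E2F2 was higher (0.92 ± 0.20, adjusted p = 0.0243), a call lost without any 1 of the ALT libraries. Without DPBS 1 and ALT+Tra 3, 2 of these were lower and 6 higher, beside 1463 lower and 1310 higher over all genes. Interferon-stimulated genes were mixed: of 13, ISG15, IRF1 and OAS1 were lower, and IFIT3 and IFIT1 were higher. IFIT3, an antiviral gene, was 4.06, 5.66 and 4.91 CPM in DPBS, 0.886, 1.52 and 0.672 CPM in ALT and 2.63, 4.17 and 3.64 CPM in ALT+Tra (1.77 ± 0.34, adjusted p = 0.013), a call lost without ALT 1, ALT 3 or ALT+Tra 2. Of the 9 fits with 1 library left out, IRF1 kept its call in 4, OAS1 in 3 and IFIT1 in 3, and the list had 1 to 3 lower and 0 to 2 higher; the lowest numbers were 1 lower without ALT 2, ALT 3, ALT+Tra 2, ALT+Tra 3 or DPBS 2 and 0 higher without ALT 1, ALT 3 or ALT+Tra 2. It had 4 lower and 2 higher without DPBS 1 and ALT+Tra 3. INSIG1 alone was higher of 10 cholesterol synthesis genes (0.84 ± 0.19, adjusted p = 0.0279), a call lost without ALT 1, ALT 2, ALT 3, ALT+Tra 2 or DPBS 2 (adjusted p of 0.0505 to 0.165). Without DPBS 1 and ALT+Tra 3, 4 members were higher. None of 8 NRF2 targets, 6 heat shock genes, 9 receptor kinases and insulin receptor substrates or 13 genes of the mitochondrial genome was called, the last with a median log2 change of -0.53 and 11 negative values.

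Genes of the extract response, chosen in H1437-4, gave a view that did not use these libraries to pick them. The 200 genes with the smallest p among those that rose at least 2-fold with WT ALT in that experiment were all tested here. Of these, 137 were lower in ALT+Tra than in ALT (68.5%, against 3.75% of all genes), none was higher and 63 were not called. Their median log2 change was -1.54, with quartiles of -2.62 and -0.82, against -0.0045 over all genes, and 193 had a negative change. Of the 200 genes that fell in H1437-4, 198 were tested, of which 37 were higher (18.7%, against 1.33% of all genes), none was lower and the median was 0.68. With 100 genes in place of 200 the share of rising genes called lower was 77%. It was 45.5% without ALT+Tra 2 and 83.5% without DPBS 1 and ALT+Tra 3.

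**Figure D4:**
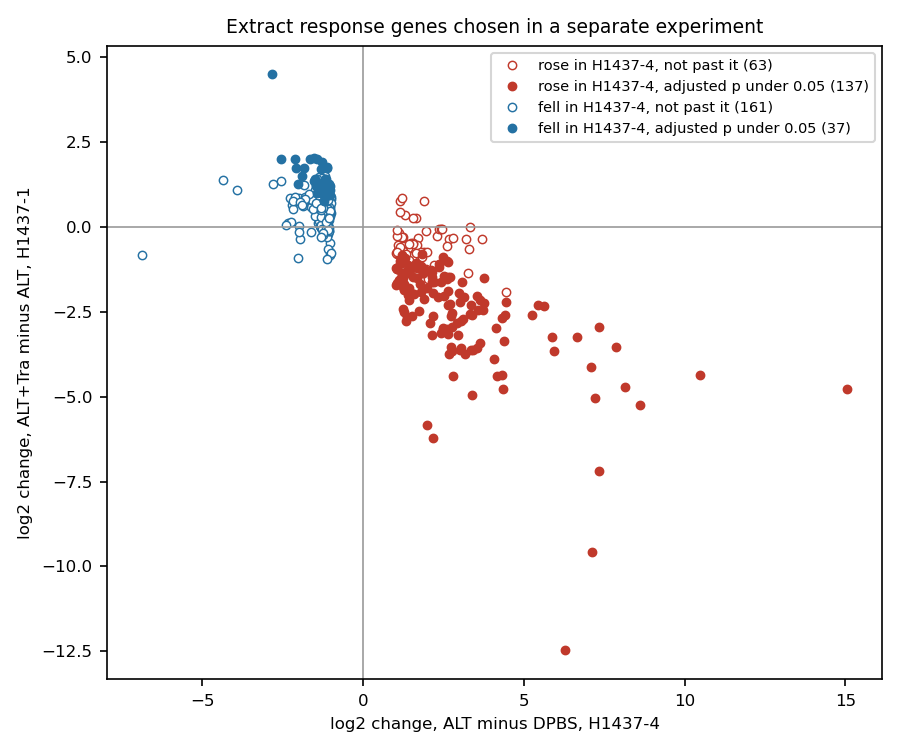
Log2 change with WT ALT against DPBS in H1437-4 (x axis) and with ALT+Tra against ALT in H1437-1 (y axis) for 200 genes that rose (red) and 198 that fell (blue) in H1437-4; filled points passed the test on the y axis. Filled red points all lie below 0 and filled blue points all above it.

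The same agent was used in H1437-2 on cells given Aeg-S/L. There, 195 of 16962 genes were lower with Tra (1.15%) and 21 higher (0.124%), with 2 libraries a side. Of the 590 genes lower with Tra under ALT that were tested in both experiments, 141 were lower under Aeg-S/L as well, which is 23.9% of the first list and 73.1% of the second, and none was higher. In the other direction 6 genes were shared, 2.82% of 213 and 28.6% of 21. Of the 200 rising genes of H1437-4, 129 were lower with Tra under Aeg-S/L, with a median log2 change of -1.32. BMF rose in both experiments: with Aeg-S/L it was 1.29 and 0.629 CPM without Tra and 7.29 and 10.1 CPM with it, against 8.79 and 7.17 CPM in DPBS (3.18 ± 0.32, adjusted p = 0.000174). EGR1 was 1954 and 2001 CPM with Aeg-S/L and 10.3 and 8.37 CPM with Tra added (-7.72 ± 0.32, adjusted p = 1.92e-07). The effects of Tra in both experiments did not differ by the test for EGR1 (difference -1.87 ± 0.54, adjusted p = 0.279), CXCL8 (-0.64 ± 0.76, adjusted p = 0.812) or BMF (1.31 ± 0.41, adjusted p = 0.36), whose standard errors leave room for differences of some size.

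A direct test of the difference between the experiments called 36 of 17789 genes with a more negative effect of Tra under ALT (0.202%) and 7 with a more positive one (0.0394%). ERK feedback genes were among the former. SPRY4 was 42.9 and 45.4 CPM with Aeg-S/L and 8.64 and 7.08 CPM with Tra added, against 16.7 and 18.7 CPM in DPBS of that experiment, so Tra left more of it there than under ALT (difference in log2 change -3.75 ± 0.44, adjusted p = 0.000793). PHLDA1 (-1.78 ± 0.27, adjusted p = 0.0086) and FOSL1 (-1.78 ± 0.28, adjusted p = 0.00866) differed the same way, and DUSP6 only just passed the threshold (-2.31 ± 0.47, adjusted p = 0.0498). PTPRE, a receptor-type phosphatase, was 5.39 and 4.73 CPM with Aeg-S/L and 5.52 and 5.29 CPM with Tra added, while under ALT it fell from 9.13, 10 and 9.64 CPM to 1.54, 1.82 and 1.6 CPM (-2.65 ± 0.37, adjusted p = 0.0047).

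IL1A and SESN2 differed in the opposite sense. IL1A was 25.7 and 24.6 CPM with Aeg-S/L and 0.11 and 0.308 CPM with Tra added, a deeper fall than under ALT, where the level before Tra was far lower (difference 4.57 ± 0.79, adjusted p = 0.0187). SESN2 was 16.8 and 15.3 CPM with Aeg-S/L and 11.5 and 15.7 CPM with Tra added, so the rise seen under ALT was not seen there (2.28 ± 0.26, adjusted p = 0.000793). Stimulus, experiment and number of libraries differ together between the tables, and their parts cannot be told apart. Without DPBS 1 and ALT+Tra 3, 159 genes differed, including SPRY4, DUSP6, PHLDA1, FOSL1, PTPRE, IL1A and SESN2. With 1 library left out, 4 to 61 genes differed, the fewest without Aeg-S/L 1 of H1437-2, and SPRY4 and SESN2 were called in all 10 such fits, PHLDA1 and FOSL1 in 7, PTPRE in 8, IL1A in 3 and DUSP6 in 1.

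**Figure D5:**
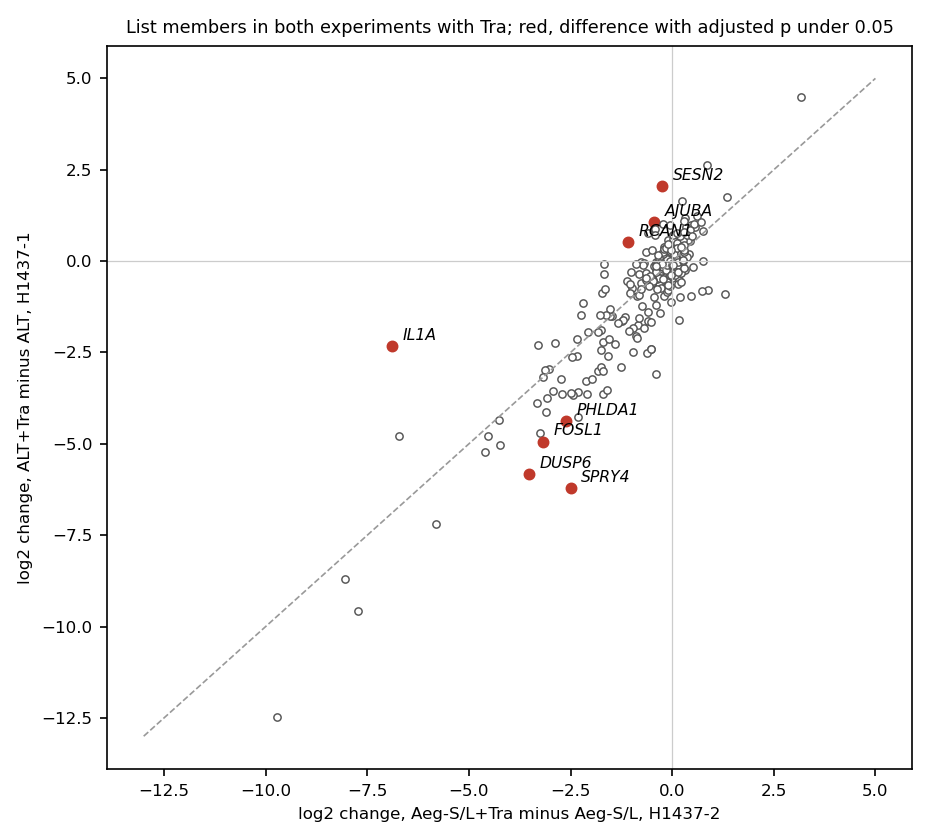
Log2 change with Tra under Aeg-S/L (x axis, H1437-2, 2 libraries a side) and under ALT (y axis, H1437-1, 3 a side) for list members; the dashed line marks equal changes, and red points are genes whose difference had an adjusted p below 0.05. SPRY4, DUSP6, PHLDA1 and FOSL1 lie below the line, and IL1A, SESN2, AJUBA and RCAN1 above it.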

How the data were processed

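RNA-seq libraries of human NCI-H1437 cells were compared. Per the submitters' processing notes, the authors used HISAT2 2.2.1, SAMtools, featureCounts 2.0.2, DESeq2 1.36.0 and the build hg19; the deposited values are raw fragment counts per gene, and whether the counting used strand is not stated there. Groups came from the labels. The labels say only that conditions had at least 2 biological replicates, so p-values measure the spread between these samples. In each table, genes were kept by edgeR's filterByExpr, scaled by TMM and tested with edgeR 4.0.16 (quasi-likelihood, R 4.3.3) over the 9 libraries of H1437-1, the 10 of H1437-2 or the 8 of H1437-4, and over both Tra tables for the difference of effects, with Benjamini-Hochberg adjustment over all genes. SE is the absolute log2 change over the square root of F. Scripts were tested on simulated data.

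Named genes were members of 23 lists, the 15 largest increases and decreases among called genes whose group means reached 1 CPM and whose replicates did not overlap, and the 5 largest differences in each direction. The members and lists were chosen with earlier results of these data known. Symbols came from a gene name table (51996 of 57820 identifiers) or GENCODE (342), and 5482 stayed unnamed. Promoters are from RefSeq on GRCh38.p14. Same-numbered libraries were checked for shared deviations from their group means. In H1437-1 the correlations were positive in every same-numbered pair only for DPBS and ALT+Tra. Nothing in the labels says that a number marks a shared culture. Alternatives were DESeq2 1.42.0, its size factors, no filter, fewer libraries and a replicate block.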

Additional observations from a re-analysis of the deposited data

Results flagged for a closer look

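For 12 of the named genes, among 43 genes in all, the effect of Tra under ALT differed from its effect under Aeg-S/L by the direct test (edgeR quasi-likelihood, adjusted p below 0.05 over 17789 genes); these are values without a weighing of causes. The log2 change was more negative under ALT for SPRY4 (difference -3.75), CASC19 (-2.85), PTPRE (-2.65), DUSP6 (-2.31), PHLDA1 (-1.78) and FOSL1 (-1.78). It was more positive under ALT for AJUBA (1.49), RCAN1 (1.58), CYP1A1 (1.93), GBP2 (2.17), SESN2 (2.28) and IL1A (4.57). CASC19, a long non-coding RNA, was called in all 10 fits that left out 1 library, CYP1A1 in 7, AJUBA in 4, GBP2 in 3 and RCAN1 in 1. CASC19 was 5.24, 6.12 and 6.14 CPM in ALT and 0.859, 1.05 and 0.689 CPM in ALT+Tra.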

How the results depend on the processing

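In H1437-1, ALT+Tra against ALT called 826 genes. The total was 1593 with DESeq2, 1864 with no low-count filter, 1721 with only the libraries of ALT and ALT+Tra and 2773 without DPBS 1 and ALT+Tra 3, a choice made after seeing the data; leaving out 1 library gave 278 to 2386. Lower calls were 985, 1206, 988 and 1463 under these settings (251 to 1143 with 1 library left out), and higher calls 608, 658, 733 and 1310 (26 to 1243). In H1437-2 the count of 216 was 427 with DESeq2, 447 with no filter and 80 to 98 with 1 library left out. The 43 genes that differed between the experiments became 123 with DESeq2, 297 with no filter, 159 without DPBS 1 and ALT+Tra 3 and 4 to 61 with 1 library left out. The share of rising response genes called lower, 68.5%, ranged from 45.5% to 80% with 1 library left out, and the 18.7% of falling ones called higher from 4.02% to 38.9%, and was 46% without DPBS 1 and ALT+Tra 3. Lower calls were 73.8% of all calls, against 61.8% with DESeq2, 57.4% with only the ALT and ALT+Tra libraries and 52.8% without DPBS 1 and ALT+Tra 3; with 1 library left out the share was 47.9% (without DPBS 1, with more genes higher than lower) to 91.7%. Replicate numbers did not pair ALT with ALT+Tra libraries (correlations of -0.124, 0.039 and -0.07 between same-numbered libraries). Those of DPBS with ALT+Tra were positive in every same-numbered pair. A replicate block gave 220 higher and 660 lower, with 744 of the 826 calls kept. Of the 99 named genes called, 57 were called in every alternative. The causes were not tested.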
